A study of Homo sapiens with 6 samples.

Results

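The DNAJ genes encode the J-domain co-chaperones of HSP70, and their RNA was compared here between cells with and without aggregates of TDP-43. Members were all rows of the deposited gene table named DNAJA, DNAJB or DNAJC followed by a number, which gave 42 of 36601 rows: 4 DNAJA, 12 DNAJB and 26 DNAJC genes. The rule reads gene names and no measured value.

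All 6 libraries came from U2OS, a human osteosarcoma line, in which doxycycline induced TDP-43-mNLS-Clover, a fluorescently tagged TDP-43 whose nuclear localization signal is mutated. For the aggregate group, cultures were transfected with 50 nM seeds made of fibrils of the TDP-43 low-complexity domain (LCD), with lipofectamine-3000, and cells holding Clover aggregates were sorted by image after 48 h. For the diffuse group, cultures of the same line were mock transfected with the storage buffer of the protein, and cells with diffuse Clover signal were sorted at the same time. Each group held 3 libraries from separate transfections. Both groups carried the transgene and the inducer, and no group without them was analysed here. Aggregates, fibril exposure, sort gate and the RNA level of TDP-43 (given below) differ together between the groups, so their parts in a difference cannot be told apart.

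A J-domain protein binds a client, hands it to HSP70 and makes HSP70 hydrolyse its ATP, which closes the chaperone on the client. Nucleotide exchange factors then release it. Class A proteins (DNAJA) carry a zinc-finger-like region beside the J domain, class B proteins (DNAJB) lack it, and class C proteins (DNAJC) share little more than the J domain and place HSP70 at a membrane, a ribosome or another site. Several cytosolic members are known for keeping aggregation-prone proteins soluble, and others for work in the endoplasmic reticulum, mitochondria and vesicles.

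Libraries held 40279084 to 46863013 gene counts, and 1 count was worth 0.0212 to 0.0251 CPM (counts scaled to a library total of 1000000, with TMM factors). Reads carry no molecular identifiers. TARDBP, the gene of TDP-43, was at 2581 ± 42.5 CPM in aggregate and 7440 ± 218 CPM in diffuse cells, with the transgene and the endogenous gene counted together. Of the U2OS mesenchymal and bone markers, 5 of 6 were tested, and the sum of the 6 was 3825 to 4099 CPM in aggregate and 4897 to 5210 CPM in diffuse libraries. COL1A2 was 3.35-fold, VIM 1.57-fold and FN1 1.31-fold lower in aggregate cells, and RUNX2 was 1.48-fold higher. SPARC overlapped between the groups, and TWIST1 was at 0 to 2 counts. Summed epithelial markers stood at 13.9 to 15.1 against 19.8 to 20.9 CPM, neuronal markers at 44.7 to 45.8 against 59.0 to 61.7 CPM (RBFOX3 was 7.21-fold higher in aggregate cells, SYT1 3.21-fold and STMN2 12.3-fold lower), and blood markers at 0.212 to 0.362 against 0.352 to 0.526 CPM. Their part in the results was not tested.

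Individual DNAJ genes moved in both directions, while their summed level stayed at nearly the same value. Genes were tested by edgeR's quasi-likelihood test with Benjamini-Hochberg adjustment over the 17839 genes that passed a filter on low counts, and a change was called at an adjusted p of 0.05. Of the 39 members that passed that filter, 20 rose in aggregate cells, 12 fell and 7 did not pass the test. This is to be read against a background in which 75.4% of all tested genes were called, 37.8% upward and 37.6% downward. Only 5 of the 39 were called with a change over 2-fold, namely DNAJB9, DNAJB2, DNAJC22 and DNAJB14, which fell, and DNAJA3, which rose; the share among all tested genes was 14.8%. The groups did not overlap for 33 of the 39 members, against 76.2% of all tested genes. The median log2 fold change (aggregates over diffuse) was 0.11 over the members and 0.01 over all tested genes, and the median absolute change was 0.35 and 0.41. Tested against a fold of 1.2 in place of no change, 9 members rose and 11 fell, against 25.1% and 26.5% of all tested genes. The rises lost by that test were those of DNAJA1, DNAJB5, DNAJB12, DNAJC3, DNAJC6, DNAJC7, DNAJC13, DNAJC18, DNAJC19, DNAJC21 and DNAJC25. The fall lost was that of DNAJC24.

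**Figure D1:**
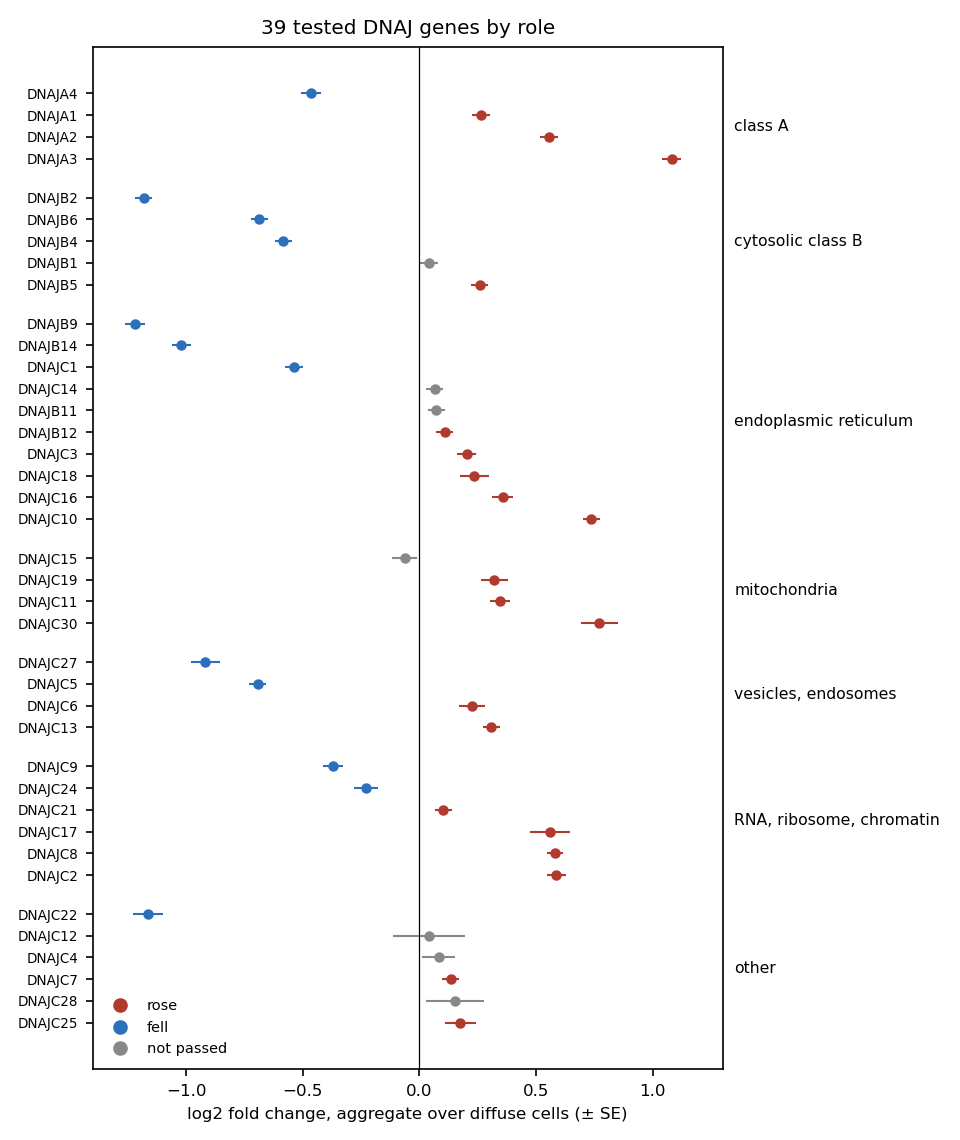
Log2 fold change (x axis, aggregate over diffuse cells) of the 39 tested DNAJ genes, grouped by role, with the standard error of the fit as bars. Red genes rose, blue genes fell and grey genes did not pass the test; DNAJA3, a class A protein of mitochondria, is drawn under class A, and values run from -1.22 (DNAJB9) to 1.08 (DNAJA3).

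The 3 members left untested were germ-cell class B genes. DNAJB7 had 5 to 13 counts per library and DNAJB13 had 4 to 8. DNAJB8 had 1 count in diffuse library 1 and 0 in the other libraries.

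Summed over all 42 members, the aggregate libraries held 3312, 3247 and 3398 CPM and the diffuse libraries 3369, 3282 and 3336 CPM. The groups overlapped, and the ratio of the means was 0.997 (exact two-sided permutation test, p = 0.9). The 3 structural classes differed in their sums. Class A summed to 775 ± 25.3 CPM in aggregate cells against 623 ± 15.7 CPM in diffuse cells (n = 3 libraries per group here and below), 1.24 times as much. Class B summed to 960 ± 19.4 against 1322 ± 26.8 CPM, a ratio of 0.726, and class C to 1584 ± 33.2 against 1384 ± 16.1 CPM, a ratio of 1.14. Each difference lay largely in 1 abundant gene. These were DNAJA1 (553 ± 24.3 against 460 ± 13.1 CPM), DNAJB2 (175 ± 1.90 against 397 ± 19.7 CPM) and DNAJC10 (385 ± 10.1 against 231 ± 7.81 CPM). In each class the groups did not overlap and the exact two-sided permutation p was 0.1, the smallest that 3 libraries against 3 can give. Among the tested genes of each class, 3 of 4 class A genes rose and 1 fell, 2 of 9 class B genes rose and 5 fell, and 15 of 26 class C genes rose and 6 fell. Over all tested genes 37.8% rose and 37.6% fell. Bulk RNA cannot separate a different RNA content per cell from a different mix of cells.

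**Figure D2:**
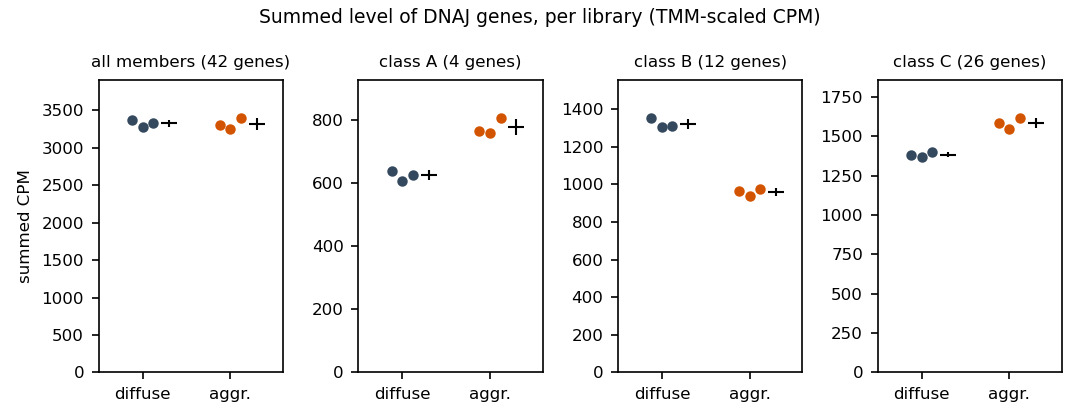
Summed CPM per library (y axis, from 0) of all members and of each structural class, with points for libraries and a bar for mean ± SD of 3 libraries to their right. The sums of all members overlap between the groups, class A and class C lie higher in aggregate cells, and class B lies lower.

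Per kilobase of annotated exon, DNAJA1 had the highest level in diffuse cells at 169 CPM per kb, followed by DNAJB2 at 67.5, DNAJB1 at 64.4 and DNAJC8 at 45.9 CPM per kb. DNAJB2 and DNAJB1 overlapped in that order when set against their spread between libraries. In aggregate cells DNAJA1 was at 202 CPM per kb, DNAJC8 at 68.8, DNAJB1 at 66.3 and DNAJB2 at 29.8 CPM per kb. DNAJC12 had the lowest level of a tested member in diffuse cells, at 0.735 CPM per kb. Replicates were close for most members, with a median coefficient of variation of 3.06% in the aggregate and 2.88% in the diffuse group.

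Of the 4 class A genes 3 rose and 1 fell, where 75.4% of all tested genes were called and 37.8% rose. DNAJA1, the abundant cytosolic partner of HSC70 (chromosome 9, 33025211 to 33039907), was at 540, 537 and 581 CPM in aggregate cells and at 473, 447 and 461 CPM in diffuse cells. Every aggregate library lay above every diffuse library, and the gene rose by a log2 fold change of 0.26 (SE 0.04, edgeR adjusted p = 6.16e-10). Against a fold of 1.2 that rise was not called (adjusted p = 0.377). DNAJA2, its close cytosolic relative, was at 99.4, 99.3 and 106 CPM against 68.4, 68.8 and 69.7 CPM. The groups were well apart, with a rise of 0.56 on the log2 scale (SE 0.04, adjusted p = 7.08e-25).

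DNAJA3, a class A protein that works with the HSP70 of the mitochondrial matrix (chromosome 16, 4425805 to 4456775), had the largest rise of any tested member. It was at 82.0, 80.9 and 79.3 CPM in aggregate cells and 40.0, 36.1 and 38.4 CPM in diffuse cells. The lowest aggregate library was far above the highest diffuse library, and the level was 2.12-fold higher (log2 fold change 1.08, SE 0.04, adjusted p = 2.23e-42). DNAJA4, a cytosolic relative of DNAJA1, was the class A gene that fell. Its values were 41.3, 41.4 and 38.8 CPM against 57.1, 55.4 and 55.2 CPM, a log2 fold change of -0.46 (SE 0.04, adjusted p = 8.42e-18) with no overlap.

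Cytosolic and nuclear class B genes fell in 3 of 5 cases, beside 37.6% of all tested genes. Their median log2 fold change was -0.58, beside 0.01 over all tested genes. DNAJB2 carries ubiquitin-interacting motifs and passes clients to the proteasome (chromosome 2, 219279267 to 219286900). It was at 177, 175 and 174 CPM in aggregate cells, against 420, 390 and 383 CPM in diffuse cells. The aggregate libraries were almost equal to each other and lay below all diffuse libraries, 2.27-fold lower (log2 fold change -1.18, SE 0.04, adjusted p = 2.98e-49).

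DNAJB6, known as a suppressor of amyloid formation by polyglutamine proteins (chromosome 7, 157335381 to 157417439), was at 93.2, 90.9 and 93.1 CPM against 149, 145 and 153 CPM. Its groups were apart, and it fell by 0.69 on the log2 scale (SE 0.04, adjusted p = 3.92e-32). DNAJB4, a heat-inducible cytosolic co-chaperone, was at 84.9, 79.3 and 83.0 CPM against 123, 127 and 119 CPM. It too was lower in every aggregate library, at a log2 fold change of -0.58 (SE 0.04, adjusted p = 1.45e-26).

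DNAJB1, the classical heat-inducible HSP40 that acts with HSP70 and its exchange factors in taking aggregates apart, did not pass the test. Its aggregate libraries were at 244, 228 and 259 CPM and its diffuse libraries at 246, 226 and 238 CPM. The groups overlapped throughout (log2 fold change 0.04, SE 0.04, adjusted p = 0.321). The value depended on single libraries: without aggregate library 2 it was 0.091 with adjusted p = 0.0315, and without aggregate library 3 it was -0.0074. Exons of DNAJB1 overlap TECR on the opposite strand. DNAJB5, the remaining gene of the set, rose by 0.26 (SE 0.04, adjusted p = 4.76e-10), with means of 104 ± 1.66 CPM in diffuse and 124 ± 1.46 CPM in aggregate cells.

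**Figure D3:**
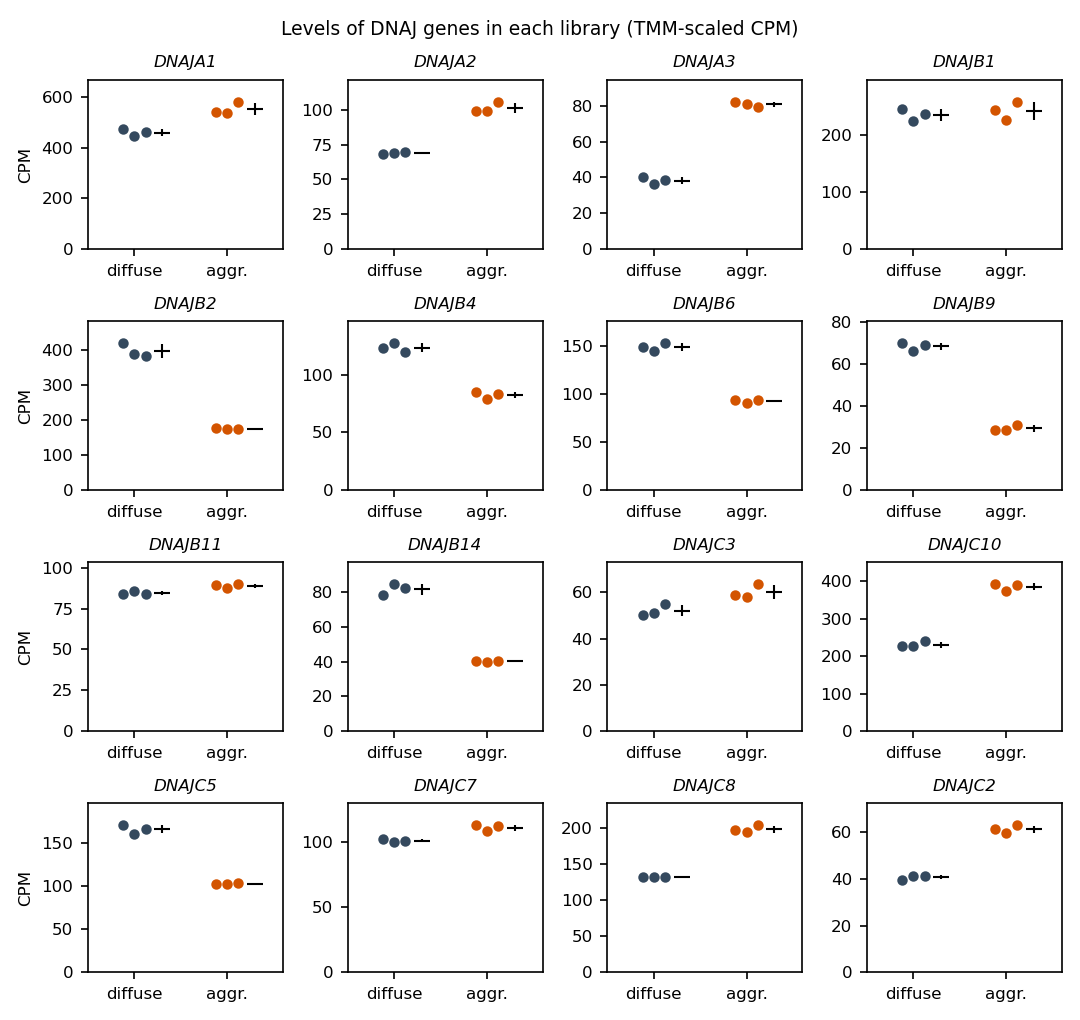
CPM per library (y axes, each from 0) of 16 DNAJ genes in diffuse and aggregate (aggr.) cells, with points for libraries and a bar for mean ± SD of 3 libraries to their right. DNAJB1 overlaps between the groups, DNAJB2, DNAJB4, DNAJB6, DNAJB9, DNAJB14 and DNAJC5 are lower in every aggregate library, and the other genes shown are higher in every aggregate library, although DNAJB11 did not pass the test.

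Promoters of the cytosolic genes are shown because these members moved in different directions while holding similar heat shock elements, the inverted GAA repeats that heat shock factors bind. RefSeq windows (GRCh38.p14) from 250 bases before to 50 bases after each start were searched on both strands for the pair GAANNTTC or TTCNNGAA. The 2 forms can overlap, and each reads the same on the other strand. A match was in 13.5% of all 35116 windows and in 9 of the 51 windows of the 39 members found in the table, which belonged to DNAJA1, DNAJA4, DNAJB1, DNAJB4, DNAJB6, DNAJB7, DNAJC6 and DNAJC15. Of these 8, DNAJA1 and DNAJC6 rose, DNAJA4, DNAJB4 and DNAJB6 fell, DNAJB1 and DNAJC15 did not pass the test, and DNAJB7 was not tested. The shares of all tested genes were 37.8% risen and 37.6% fallen, so calls in both directions were common with or without a match. The triple GAANNTTCNNGAA, which contains the pair, was in 0.490% of all windows and in those of DNAJB6, upstream of the start, and DNAJA1, just after it. Stretches of 60 bases around upstream matches follow, in the direction of transcription, with each match in capitals. A match is a run of letters and was not measured as a bound site.
DNAJA1, chr9:33025049-33025108, plus strand: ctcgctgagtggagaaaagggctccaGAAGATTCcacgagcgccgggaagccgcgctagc
DNAJA4, chr15:78264464-78264523, plus strand: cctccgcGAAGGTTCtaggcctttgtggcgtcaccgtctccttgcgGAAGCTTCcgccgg
DNAJB1, chr19:14518426-14518485, minus strand: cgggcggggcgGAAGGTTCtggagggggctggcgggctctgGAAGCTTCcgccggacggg
DNAJB4, chr1:78004815-78004874, plus strand: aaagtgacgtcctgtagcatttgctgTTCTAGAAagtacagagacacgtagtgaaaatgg
DNAJB6, chr7:157336849-157336908, plus strand: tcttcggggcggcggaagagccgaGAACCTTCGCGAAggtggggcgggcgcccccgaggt

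DNAJA4 and DNAJB1 each showed a pair of matches, GAAGGTTC followed by GAAGCTTC. In DNAJB1 they began 77 and 47 bases upstream of the start, and in DNAJA4 91 and 52 bases upstream. DNAJA4 was the one that fell, and DNAJB1 did not pass the test.

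Of 10 tested genes of the endoplasmic reticulum (ER), 5 rose, 3 fell and 2 did not pass. Over all tested genes 37.8% rose and 37.6% fell. The 10 ER genes had a median log2 fold change of 0.09 and a mean of -0.10, so the sign depended on the summary. DNAJB9 (ERdj4), a lumenal protein that holds the stress sensor IRE1 inactive and is itself a target of the unfolded protein response, had the largest fall of any tested member. It was at 28.5, 28.6 and 31.2 CPM in aggregate cells and 70.1, 66.6 and 69.0 CPM in diffuse cells. The groups were far apart, and the level was 2.33-fold lower (log2 fold change -1.22, SE 0.04, adjusted p = 7.65e-45). DNAJB9 (chromosome 7, 108569568 to 108574850) shares exon bases with PNPLA8 and THAP5 on the opposite strand, and no spliced reads were tabulated for it.

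DNAJB14, an ER membrane protein whose J domain faces the cytosol (chromosome 4, 99896248 to 99946726), was at 40.4, 39.9 and 40.3 CPM against 78.2, 84.4 and 82.1 CPM. All aggregate libraries were at about the same value, and the level was 2.03-fold lower (log2 fold change -1.02, SE 0.04, adjusted p = 5.06e-41). DNAJB12, its closest relative at that membrane, rose by a small amount, 0.11 on the log2 scale (SE 0.04, adjusted p = 0.00681), with means of 77.5 ± 0.285 CPM in diffuse and 83.5 ± 1.37 CPM in aggregate cells. DNAJC1, an ER membrane protein that binds ribosomes, was at 68.8, 66.7 and 70.2 CPM against 97.9, 97.8 and 103 CPM. It fell by 0.54 on the log2 scale (SE 0.04, adjusted p = 6.65e-24).

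Among the rises of this set, DNAJC10 (ERdj5), a disulfide reductase that prepares misfolded proteins for export from the ER, was at 392, 374 and 391 CPM against 227, 226 and 240 CPM. Its groups did not overlap, and the log2 fold change was 0.74 (SE 0.04, adjusted p = 2.28e-34). DNAJC3 (p58IPK), a lumenal co-chaperone of the HSP70 protein BiP, was at 59.0, 57.9 and 63.5 CPM against 50.4, 51.3 and 54.9 CPM. It rose by 0.20 (SE 0.04, adjusted p = 9.23e-06). DNAJB11 (ERdj3), another BiP co-chaperone, was at 89.2, 87.5 and 89.8 CPM against 83.7, 86.0 and 83.8 CPM. Its groups did not overlap, yet the log2 fold change of 0.07 (SE 0.04) missed the threshold at adjusted p = 0.0698. It passed with total-count scaling (adjusted p = 0.0281) and among genes of at least 5 CPM (adjusted p = 0.0173), and with the GC and length correction it was at 0.26 (adjusted p = 3.83e-10). Exons of DNAJB11 overlap TBCCD1 and AC068631.1 on the opposite strand, and its spliced reads, of 1 intron, were at -0.017 on the log2 scale. DNAJC16 rose by 0.36 and DNAJC18 by 0.24, both without overlap. DNAJC14 was at 0.07 and did not pass (adjusted p = 0.112), though it passed without aggregate library 1 (adjusted p = 0.0461).

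DNAJC10 was also the member whose window held the element TGACGTGG, or CCACGTCA on the other strand, which the stress factors of the ER bind. That element was in 0.729% of all windows and in 1 of the 51 member windows. The longer ER stress element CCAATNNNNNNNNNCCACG, searched on both strands, was in 0.0769% of all windows and in 0 of the member windows. The stretch of DNAJC10, with its match 125 bases upstream of the start in capitals, is given on the next line.
DNAJC10, chr2:182716106-182716165, plus strand: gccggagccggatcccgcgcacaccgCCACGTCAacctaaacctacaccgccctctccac

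Mitochondrial genes rose in 4 of 5 cases, beside 37.8% of all tested genes, with DNAJA3 among them, and had a median log2 fold change of 0.35. DNAJC30, a small protein linked to respiratory complex I, was at 9.31, 9.18 and 9.34 CPM against 6.06, 4.76 and 5.48 CPM. It rose by 0.77 (SE 0.08, adjusted p = 4.61e-15), with all aggregate libraries above the diffuse ones. DNAJC30 overlaps BUD23 on the opposite strand and has no tabulated spliced reads. DNAJC11, a protein tied to the cristae, rose by 0.35, and DNAJC19, a relative of a subunit of the import motor, rose by 0.32. DNAJC15, the other such relative, was at -0.06 and did not pass the test; corrected for GC content and length it was at 0.15 (adjusted p = 0.00584).

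Genes of vesicles and endosomes divided evenly, with 2 risen and 2 fallen, beside 37.8% risen and 37.6% fallen over all tested genes. DNAJC5, the cysteine string protein of secretory vesicles, which is also known for the release of misfolded proteins from cells (chromosome 20, 63895182 to 63936031), was at 102, 102 and 103 CPM against 170, 161 and 166 CPM. All aggregate libraries lay below the diffuse ones, and the gene fell by 0.69 on the log2 scale (SE 0.04, adjusted p = 1.1e-32). DNAJC27, which joins a Rab-like GTPase to a J domain, was at 9.20, 10.3 and 10.3 CPM against 17.7, 19.0 and 19.6 CPM. It fell by 0.92 (SE 0.06, adjusted p = 6.46e-25). DNAJC6 (auxilin), which uncoats clathrin vesicles, rose by 0.22, and DNAJC13 (RME-8), an endosomal sorting protein, rose by 0.31.

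Members that act on RNA, ribosomes or chromatin were called in 6 of 6 cases, 4 upward and 2 downward, beside 75.4% of all tested genes called. DNAJC8, a protein found with the spliceosome, was at 197, 194 and 204 CPM against 132, 133 and 133 CPM, and rose by 0.58 (SE 0.04, adjusted p = 7.32e-28). DNAJC2, a ribosome-bound co-chaperone of new polypeptides, was at 61.2, 59.8 and 62.9 CPM against 39.7, 41.3 and 41.4 CPM, and rose by 0.59 (SE 0.04, adjusted p = 8.23e-24). Neither gene had an aggregate library within the diffuse range. DNAJC17, a splicing-related protein, was at 7.25, 6.78 and 7.87 CPM against 4.89, 5.05 and 4.87 CPM and rose by 0.56 (SE 0.08, adjusted p = 5.03e-09).

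The smallest call of that set was DNAJC21, a factor in the maturation of the large ribosomal subunit, at a log2 fold change of 0.10 (SE 0.04, adjusted p = 0.00874). It was lost without aggregate library 3 (adjusted p = 0.0734) or diffuse library 1 (adjusted p = 0.0588). DNAJC9, a histone chaperone, was at 39.7, 41.8 and 42.4 CPM against 55.7, 52.8 and 51.8 CPM. It fell by 0.37 (SE 0.04, adjusted p = 3.6e-13), with no overlap. DNAJC24, an enzyme cofactor for diphthamide on elongation factor 2, fell by 0.23 (SE 0.05, adjusted p = 5.24e-05), and its value was -0.0011 once GC content and length were corrected for.

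The 6 remaining members include DNAJC7, whose tetratricopeptide repeats bind both HSP70 and HSP90. It was at 113, 108 and 112 CPM against 102, 100 and 101 CPM, a rise of 0.13 (SE 0.04, adjusted p = 0.000567) without overlap. Exons of DNAJC7 overlap CNP and NKIRAS2 on the opposite strand, and its spliced reads differed by only 0.006 on the log2 scale. DNAJC22, a membrane protein, was at 8.34, 7.90 and 8.69 CPM against 18.2, 17.1 and 20.4 CPM. It was 2.24-fold lower (log2 fold change -1.16, SE 0.07, adjusted p = 1.43e-29), and no aggregate library reached the diffuse range. DNAJC25 rose by 0.18, a call that DESeq2 did not make (adjusted p = 0.0826), and its exons overlap those of the readthrough gene DNAJC25-GNG10. DNAJC4, DNAJC12 and DNAJC28 did not pass the test, at log2 fold changes of 0.08, 0.04 and 0.15.

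Of the 42 members, 18 share exon bases with a gene on the opposite strand, and the strand setting used in counting is not given in the sources used here. Reads across introns carry a strand through the splice site. Of the 11 overlapped members that were called, 9 had tabulated spliced reads, and in all 9 these differed in the same direction as the gene counts, although by almost nothing in DNAJC7. On the log2 scale the spliced reads of DNAJC11 and DNAJC16 were at 0.16 and 0.14, beside 0.35 and 0.36 in gene counts. Those of DNAJC9 and DNAJC27 were at -0.45 and -1.01, beside -0.37 and -0.92 in gene counts. Among the 24 members without such overlap, 13 rose, 8 fell and 3 did not pass, where 37.8% of all tested genes rose and 37.6% fell. Of these 24, DNAJC3 and DNAJC25 rose in gene counts, yet their spliced reads were at 0.013 and 0.006. DNAJC18 was at 0.68 in spliced reads, beside 0.24 in gene counts. Some members, among them DNAJA1, DNAJB1, DNAJB5, DNAJC8 and DNAJC19, have pseudogene copies in GENCODE 29 that could share reads with them. The list of such members may not be complete.

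Splicing was measured in a second deposited table, LeafCutter counts of reads across introns grouped into clusters that share splice sites. Of 107 tested clusters that touch 37 members, 12 changed their intron use, in 10 members (edgeR diffSpliceDGE with Simes p-values, adjusted over 35898 clusters). That is 11.2% of the member clusters, beside 5.02% of all tested clusters. One of the 2 clusters under DNAJC5 held only 1.28% of its counts in that gene and the rest in its neighbour TPD52L2, which leaves 11 without it. With each library left out in turn, 7 to 9 clusters were called. The lowest count, 7, came without aggregate library 3, where 7 were among the 12, and without diffuse library 2, where 6 were. The clusters of DNAJC7, DNAJC10 and DNAJC5 and 1 of the 2 in DNAJC8 were called in all 6 of those fits. Shares of all clusters called in those fits are not given here, so 11.2% beside 5.02% describes the fit of all libraries only.

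In DNAJC5 the change was in a 74-base exon at chr20:63931109-63931182 (plus strand, GRCh38). GENCODE 29 holds it in 1 transcript, which is annotated as subject to nonsense-mediated decay, the pathway that degrades RNA with an early stop codon. Inclusion was computed by dividing the average count of the introns on its sides by the total of that average and the count of the intron that skips it. It was 32.6%, 36.1% and 39.9% in aggregate cells and 14.9%, 13.6% and 15.5% in diffuse cells, on a total of at least 271.5 reads in each library. Every aggregate library was far above the diffuse range, and the cluster had an adjusted p of 1.94e-05. The gene count of DNAJC5 was lower, and an exon of a decay transcript was included more often. A link between splicing and gene level was not tested, for DNAJC5 or for the members below. Both joins are shown because the included exon brings in the stop codon. The first 24 letters end the upstream exon at base 63931022. In the included form the capitals mark the stop codon at 63931117 to 63931119 and in the skipped form the first bases of the next exon, from GENCODE 29 transcripts.
DNAJC5 exon included: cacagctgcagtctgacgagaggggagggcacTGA
DNAJC5 exon skipped: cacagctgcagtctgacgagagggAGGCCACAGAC

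DNAJB14, which also fell, included more of an exon of 76 bases (chr4:99928542-99928617, minus strand), annotated in 1 decay transcript with a stop codon inside it. Its annotated side introns, chr4:99927839-99928541 and chr4:99928618-99930449, took 8.35% ± 0.392 and 10.9% ± 1.77 of the cluster in aggregate cells. In diffuse cells they took 3.30% ± 0.269 and 5.73% ± 1.64. Against the intron that skips this and other exons (chr4:99923186-99930449), a ratio was 17.6%, 23.5% and 16.7% in aggregate and 6.87%, 6.45% and 10.2% in diffuse cells. That ratio paired chr4:99928618-99930449 with an unannotated intron (chr4:99923186-99928541) of 0 to 4 reads per library. It leaves out chr4:99927839-99928541 and is not the full inclusion of the exon. By the same kind of ratio an exon of 56 bases (chr4:99924760-99924815), whose side introns are annotated, stood at 16.8%, 21.6% and 16.0% against 6.15%, 10.3% and 8.47%. The groups did not overlap for either exon by that measure. Against a shorter skipping intron (chr4:99924816-99930449) the exon of 76 bases was at 47.3% ± 2.50 against 45.4% ± 8.26, and the groups overlapped. This too used an unannotated side intron (chr4:99924816-99928541), of 0 to 8 reads per library. The cluster had adjusted p = 0.0172, which rose to as much as 0.108 when single libraries were left out and held in 2 of those 6 fits.

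In DNAJC7 and DNAJC2 an alternative exon was used less in aggregate cells. DNAJC2 rose, whereas DNAJC7 rose by only 0.13 in gene counts and differed by 0.006 in spliced reads. The call of DNAJC7 was lost against a fold of 1.2. DNAJC7 has an exon of 199 bases (chr17:42003359-42003557, minus strand) in 2 protein-coding transcripts and 1 decay transcript, with a stop codon in it in 1 of them. Inclusion was 3.67%, 5.44% and 3.01% against 13.1%, 14.6% and 14.5%, with no overlap (cluster adjusted p = 2.13e-07). For DNAJC2 an exon of 47 bases (chr7:103327332-103327378, minus strand), annotated in no protein-coding transcript, stood at 3.61%, 2.40% and 1.65% against 8.96%, 7.84% and 5.37%. The groups were apart here too, at adjusted p = 0.0337, and the call held in 2 of the 6 fits without a library.

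**Figure D4:**
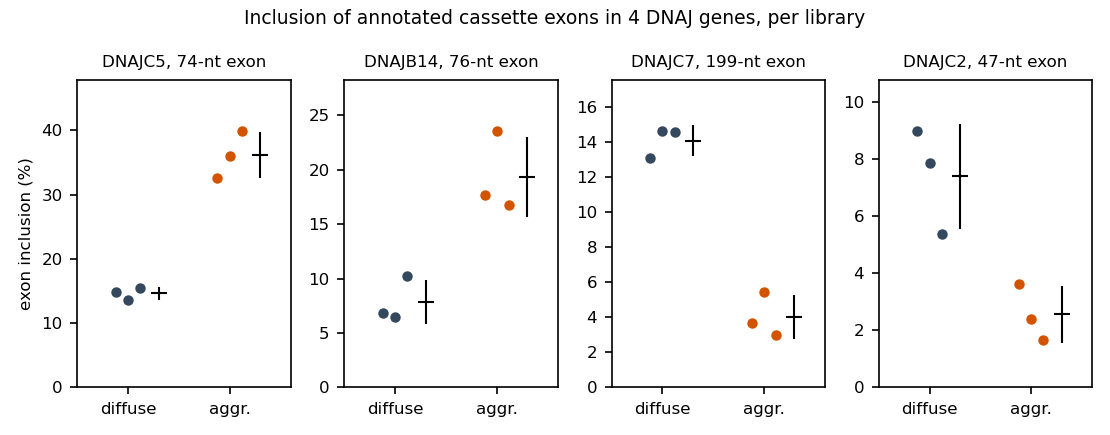
Inclusion in percent (y axes, each from 0) of annotated exons of DNAJC5, DNAJB14, DNAJC7 and DNAJC2 in diffuse and aggregate (aggr.) libraries, with points for libraries and a bar for mean ± SD of 3 libraries to their right. The exons of DNAJC5 and DNAJB14 are higher and those of DNAJC7 and DNAJC2 lower in every aggregate library. For DNAJB14 the value is a ratio that uses an unannotated side intron of 0 to 4 reads per library.

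DNAJC10, DNAJC19 and DNAJC8, which all rose, each skipped an exon less often in aggregate cells. DNAJC10 included an exon of 44 bases (chr2:182732499-182732542) at 99.3% ± 0.190 against 95.6% ± 1.58 (adjusted p = 3.06e-06). DNAJC19 included one of 80 bases (chr3:180986943-180987022) at 95.3% ± 0.110 against 88.8% ± 1.53 (adjusted p = 0.00614), and the intron that skips it is annotated in a decay transcript. That call held in 4 of the 6 fits without a library and was lost with an F test per cluster (adjusted p = 0.0762). DNAJC8 changed in 2 clusters. Its exon of 95 bases (chr1:28209972-28210066) was included at 98.7% ± 0.155 against 96.4% ± 0.427 (adjusted p = 0.00159). Its exon of 122 bases (chr1:28230131-28230252), annotated in no protein-coding transcript, was included at 3.96% ± 1.01 against 7.79% ± 0.407 (adjusted p = 0.00439, called in 5 of 6).

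The other changes were small. DNAJA2 had an exon of 134 bases at an inclusion of 100% in each aggregate library and 99.3% ± 0.386 in diffuse cells (adjusted p = 0.0452), a call that was lost whichever library was left out. DNAJC21 used an acceptor 4 bases further downstream, annotated in a decay transcript, at 1.40% ± 0.652 against 4.38% ± 2.10 (adjusted p = 0.0368, called in 1 of the 6 fits without a library). In DNAJB6 the intron chr7:157385612-157409794 took 6.91% ± 0.924 of its cluster against 10.2% ± 0.420 (adjusted p = 0.0197, called in 2 of 6).

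Among the 12 tested genes of the HSP70 proteins that these co-chaperones serve, 7 rose, 3 fell and 2 did not pass, beside 75.4% of all tested genes called, with a median log2 fold change of 0.23. HSPA8, the constitutive cytosolic HSC70, was at 2328 ± 20.3 against 1281 ± 57.9 CPM, a rise of 0.86 (SE 0.04). The stress-inducible pair HSPA1A and HSPA1B rose by 1.44 and 1.75, but they are near-identical copies and the split of reads between them is uncertain. Mitochondrial HSPA9, the partner of DNAJA3, rose by 0.80 (SE 0.04, adjusted p = 9.3e-37), and BiP (HSPA5), the partner of the ER members, by 0.21 (SE 0.04, adjusted p = 5.73e-07).

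Nucleotide exchange factors rose in 9 of 14 cases and fell in 4, again beside 75.4% of all tested genes called. GRPEL2, a mitochondrial factor, was at 49.0, 51.8 and 56.2 CPM against 135, 135 and 136 CPM and fell by 1.37 on the log2 scale, whereas its relative GRPEL1 rose by 0.70. BAG1 fell by 1.02 and BAG2 rose by 0.96. The HSP70 adaptors and the ubiquitin ligase rose in 3 of 3 cases, beside 37.8% of all tested genes, ST13 by 0.94, STIP1 by 0.52 and STUB1 by 0.33. The call of STUB1 was lost with the GC and length correction (0.11, adjusted p = 0.0809) and against a fold of 1.2 (adjusted p = 0.0956). Of the heat shock factor genes HSF1 rose by 0.29 and HSF2 by 0.12, and HSF4 did not pass. Against a fold of 1.2 the calls of HSF1 (adjusted p = 0.158) and HSF2 were both lost. The call of HSF2 (adjusted p = 0.0294) was also lost without aggregate library 1 (0.188), aggregate library 3 (0.0758) or diffuse library 3 (0.233). It was lost too with DESeq2 (0.127) and with the GC and length correction (0.0648). Among J-domain proteins with other names, SEC63 of the ER translocon fell by 0.52, and HSCB and GAK did not pass.

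**Figure D5:**
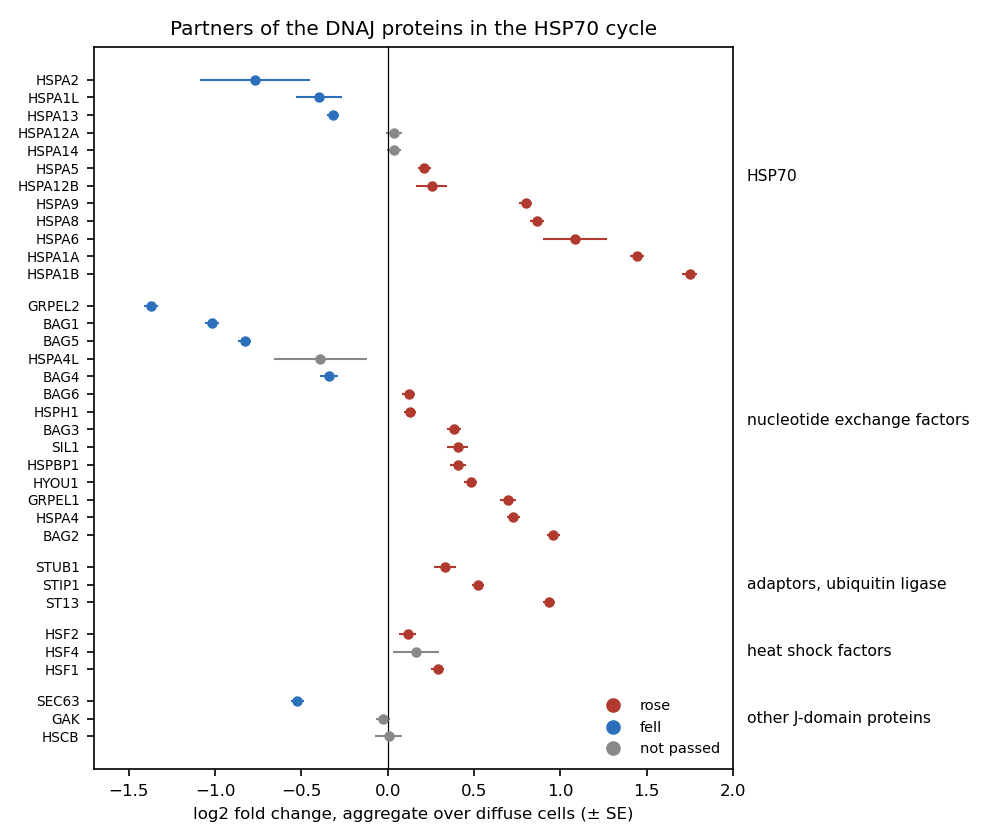
Log2 fold change (x axis, aggregate over diffuse cells) of tested genes for HSP70 proteins, their exchange factors, adaptors and ubiquitin ligase, heat shock factors and J-domain proteins with other names, with the standard error of the fit as bars. Red genes rose, blue genes fell and grey genes did not pass the test; values run from -1.37 (GRPEL2) to 1.75 (HSPA1B).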

How the data were processed

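The submitters' processing notes name STAR 2.7.11a, fastp 0.23.2 and hg38. Not given in the sources used here are the gene counter, its annotation and strand setting, and a version of LeafCutter. The deposited values of both tables are whole-number counts, not normalized, from polyA RNA and a stranded kit per the labels' protocols. For gene counts, filterByExpr (by group), TMM scaling and a robust quasi-likelihood fit of edgeR 4.0.16 were run in R 4.3.3. Introns with at least 10 counts over 6 libraries were kept in clusters of at least 2 introns and 10 counts in every library. Coordinates are 1-based, from GENCODE 29 on the same build. DESeq2 1.42.0, other scalings and filters, left-out libraries, a replicate block and a correction for GC content and length served as alternatives. Replicates differed by more than sampling noise (chi-square per degree of freedom 2.59 to 6.34). Scripts were tested on simulated data. One gene of a partner list is not reported here. The name rule for members and the lists were proposed with earlier results of these data known. Genes named by rule were 11 members listed by name and the 8 largest rises and falls at a mean of at least 5 CPM. They also included the strongest call per role, up to 3 calls per partner list, and members with changed splicing. Values per library are given for many of these, and only means or fold changes for the rest. Other genes are named after their values were seen, some with values per library.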

Additional observations from a re-analysis of the deposited data

How the results depend on the processing

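Over 14 alternative settings, 51 DNAJ and partner genes gave 712 values, of which 673 kept their direction and their side of the threshold. Counts of risen members were 19 to 22 and of fallen members 11 or 12, except against a fold of 1.2, where 9 rose and 11 fell (25.1% and 26.5% of all tested genes). The number over 2-fold was 5 in each setting, but with the GC and length correction DNAJB14 (-0.73) left that set and DNAJC10 (1.02) entered it. With libraries left out in turn, 7 to 9 splicing clusters changed. Apart from the fold of 1.2, shares over all genes or clusters are not given here for the alternative settings. The replicate block gave 20 risen and 12 fallen members and 10 clusters; same-numbered libraries correlated at 0.036 to 0.083, so the numbers were not taken as pairs, although each library correlated best with its own number. Values that changed sign had no call in the fit as reported: DNAJC12 with a range of -0.088 to 0.11 over left-out libraries and -0.015 with the GC and length correction, DNAJB1 with -0.0074 to 0.091 and -0.045, DNAJC4 with -0.080 and DNAJC15 with 0.15 under that correction, an alternative chosen after seeing the data. The cause was not tested. Genes of few counts, such as DNAJB7, DNAJB8 and DNAJB13, were not testable at this depth.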

Other observations

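A total of 7 further rows carry a DNAJ name but lie outside the numbered family. DNAJC3-DT, a transcript divergent from DNAJC3, was at 1.71, 1.89 and 2.00 CPM in aggregate and 1.08, 1.36 and 1.64 CPM in diffuse libraries. It rose by 0.45 (SE 0.16, edgeR adjusted p = 0.00663), beside the rise of 0.20 in DNAJC3. DNAJC27-AS1, on the strand opposite to DNAJC27, was at 0.480 ± 0.0899 against 0.440 ± 0.0831 CPM and did not pass the test (log2 fold change 0.12, adjusted p = 0.712), while DNAJC27 fell. DNAJC5B and DNAJC5G, relatives of DNAJC5, had 0 to 2 and 0 to 5 counts per library and were not tested.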
